A study of Arabidopsis thaliana with 16 samples.

Results

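The genes described here are 41 nuclear genes of the photosynthetic apparatus, measured in roots of Arabidopsis thaliana seedlings 5 days old. They were listed by gene code, as antenna genes (LHCA and LHCB), small subunits of Rubisco (RBCS) and nuclear subunits of photosystem I (PSA) and photosystem II (PSB), and they are 41 of the 33560 genes in the matrix. The set was drawn up with earlier results of these libraries in view, including a mutant direction that turned between replicate pairs, so the tests of that turn below are not independent of the choice. Messenger RNA was sequenced in 16 libraries, 4 for each of 4 genotypes in the Col-0 background. The genotypes are the plants labelled as carrying both mctp3-2 and mctp4-1 (double), the single mutants labelled mctp4-1 and mctp3-2, and wild type (WT). No other allele or treatment is named in the labels, the seedlings grew on plates in long days, and the labels do not say how many plants were pooled in a library. The 2 mutated genes, MCTP3 and MCTP4, code for tethering proteins at plasmodesmata, which connect neighbouring plant cells. The replicate numbers 1 to 4 of each genotype belong to columns numbered 2, 3, 6 and 7, and what these numbers stand for is not given. Replicates 1 and 2 and replicates 3 and 4 are treated below as 2 pairs within each genotype. The labels do not state whether the libraries of a genotype were grown separately, and the p-values rest on library-to-library spread that could be technical.

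In green cells the antenna proteins hold chlorophyll and pass light energy to the 2 photosystems, which drive electron transport, while Rubisco fixes carbon dioxide. The nuclear genes for these proteins are transcribed strongly in leaves under light, with a daily rhythm set by the circadian clock, and are held low in roots, where most plastids are colourless. Roots grown in the light can still form some chloroplasts, mainly in the upper part and around the vasculature.

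Values were FPKM, fragments per length of transcript scaled to a fixed number of mapped fragments, so levels can be compared between genes. The 16 libraries each had 18556 to 18786 genes at 1 FPKM or more, and log2 values of any pair of libraries correlated at 0.981 to 0.995 across genes, with 0 identical pairs. WT replicates 1 and 4 stood apart in the share of FPKM from noncoding genes, at 4.57% and 3.96%, against 0.906 to 2.13% in the other 14 libraries, and its part in the comparisons with WT was not tested. Without WT replicate 4 the median difference of the photosynthesis genes between double and WT, described below, was -0.29. MCTP4 was at 2.94 to 3.31 FPKM in the libraries labelled double, 2.55 to 5.50 in mctp4-1, 26.9 to 30.2 in mctp3-2 and 22.9 to 29.4 in WT. MCTP3 was at 13.0 to 14.6 FPKM in the libraries labelled double and 12.4 to 16.4 in those labelled mctp3-2, against 5.53 to 8.03 in mctp4-1 and 6.07 to 6.61 in WT. The MCTP3 transcript thus went against the mctp3-2 and double labels, and directions given below for these groups rest on their labels. All 10 root markers examined were present, from WOX5 of the stem cell niche at 4.49 to 8.37 FPKM to PYK10, a root myrosinase, at 3898 to 5165 FPKM. Of 14 shoot and leaf markers, TGG2, FAMA, FIL and YAB5 were at 0 in all 16 libraries, and 9 of the 14 were below 1 FPKM in every library. In bulk RNA, fewer cells of a type and less RNA per cell cannot be told apart.

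The photosynthesis genes were low but present, at 0.0743 to 0.213% of the FPKM of a library, summed over the 41. A few genes carried most of that level. LHCB1.5 (AT2G34420), a gene of the main light-harvesting trimer of photosystem II, averaged 239 FPKM over the 16 libraries and made up 20.5% of the summed level of the 41. PSBR (AT1G79040), a subunit that helps to hold the oxygen-evolving proteins, averaged 169 FPKM. PSBX (AT2G06520), a small membrane subunit of photosystem II, averaged 78.8 FPKM and LHCA4 (AT3G47470), an antenna protein of photosystem I, 76.8 FPKM. These 4 genes held 48.2% of the level and the highest 10 held 70.2%. The ranges of the neighbours in this order overlapped between libraries, with LHCB1.5 at 122 to 419 FPKM, PSBR at 115 to 271 FPKM, PSBX at 51.4 to 115 FPKM and LHCA4 at 35.6 to 164 FPKM.

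Next came LHCB1.3 at a mean of 53.8 FPKM, RBCS1A at 48.5, PSBO1 at 43.3, PSAF at 37.7, PSBP-1 at 37.0 and PSAK at 36.5. LHCB4.1, PSAD-1, LHCB5, LHCB3, LHCA3, PSAO and LHCB6 averaged 22.9 to 32.5 FPKM. PSBW, PSAN, LHCA1, PSBQA, PSAG, PSBQ-2, PSBO2 and LHCB4.2 averaged 10.9 to 17.4 FPKM. PSAL, PSAE-1, LHCA2, PSBY, LHCB2.1, PSAD-2, PSAH2 and LHCB4.3 averaged 2.04 to 9.27 FPKM. RBCS3B, LHCB1.2 and RBCS2B averaged 1.04 to 1.72 FPKM, and LHCB1.1, LHCB2.2, RBCS1B, LHCB1.4 and LHCB2.3 averaged 0.332 to 0.519 FPKM. Close relatives therefore stood far apart, since LHCB1.5 and LHCB1.4, which lie 1038 bases apart on chromosome 2, averaged 239 and 0.335 FPKM.

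The genes were tested where they reached 1 FPKM in at least 4 of the 16 libraries. This left 34 of the 41, and LHCB1.1, LHCB1.4, LHCB2.2, LHCB2.3, RBCS1B, RBCS2B and RBCS3B were not tested. Counts and medians below cover the 34, which are not all members.

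The 41 genes lie on all 5 chromosomes of the TAIR10.1 annotation, which names each of them, and several form tandem groups of near copies. LHCB1.2, LHCB1.1 and LHCB1.3 follow each other on chromosome 1 between 10472280 and 10479114, with coding sequences 95.6 to 96.4% identical. RBCS3B, RBCS2B and RBCS1B follow each other on chromosome 5 between 15376988 and 15385320. Their coding sequences are 96.7 to 97.3% identical to each other, while RBCS1A, alone on chromosome 1 from 25048158 to 25049667, is 90.4 to 90.6% identical to them. RBCS1B and RBCS3B share an unbroken run of 230 identical coding bases. How the authors' counting shared reads between such copies is not given, so the values of single LHCB1 and RBCS genes are uncertain. The same stretch of 90 coding bases is shown for the 4 RBCS genes, because it shows how few bases tell the copies apart. It is read from the coding strand of TAIR10.1, and capitals mark bases that differ from RBCS1A.
RBCS1A: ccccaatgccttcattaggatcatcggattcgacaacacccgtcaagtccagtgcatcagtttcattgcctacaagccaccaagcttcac
RBCS1B: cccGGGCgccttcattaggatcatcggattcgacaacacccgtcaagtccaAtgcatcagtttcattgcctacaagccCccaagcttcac
RBCS2B: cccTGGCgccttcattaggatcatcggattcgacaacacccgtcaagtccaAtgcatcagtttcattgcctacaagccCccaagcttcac
RBCS3B: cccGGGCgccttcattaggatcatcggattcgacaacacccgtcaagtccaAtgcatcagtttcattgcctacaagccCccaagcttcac
Over this stretch each of the 3 chromosome 5 genes differs from RBCS1A at 6 bases. RBCS1B and RBCS3B differ from each other at 0 bases and RBCS2B differs from each of them at 1 base. In addition, 14 of the 41 genes overlap another annotated gene, 2 of them, PSAD-2 and PSBP-1, on the same strand, and whether the counting used the strand is not given. LHCA4, LHCB1.3, LHCB1.5, LHCB3 and PSBR are among the 14.

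Many of these genes are known to respond together to light and the clock through short promoter motifs. The 250 bases before each annotated gene start were searched on both strands for 5 motifs. The G-box CACGTG was found in 8 of the 41 windows (19.5%), against 6.49% of 27443 windows of all genes. The I-box GATAAG was found in 10 windows (24.4%, against 12.3% of all) and CCAATC, the letters of a CCAAT box with a flanking base, in 11 (26.8%, against 10.2%). The CCA1-binding site AAAAATCT was found in 5 windows (12.2%, against 6.69%) and the evening element AAAATATCT in 0 (against 2.36%). None of these motifs overlapped another in the windows shown. A match is a description of letters and not evidence of binding. Windows are shown for 4 genes that the results below turn on: LHCA4 and LHCB2.1, whose libraries separated by replicate pair, and RBCS1A and RBCS2B, whose levels stood out in 2 libraries. They are in TAIR10.1, 5′ to 3′ on the strand of the gene, at chr3:17495034-17495283 (minus strand), chr2:1824481-1824730 (minus), chr1:25049668-25049917 (minus) and chr5:15382072-15382321 (minus), with the motifs in capitals.
LHCA4: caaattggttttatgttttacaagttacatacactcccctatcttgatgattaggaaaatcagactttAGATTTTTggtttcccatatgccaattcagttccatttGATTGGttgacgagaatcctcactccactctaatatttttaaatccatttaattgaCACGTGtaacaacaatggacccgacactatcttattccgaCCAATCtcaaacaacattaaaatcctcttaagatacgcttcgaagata
LHCB2.1: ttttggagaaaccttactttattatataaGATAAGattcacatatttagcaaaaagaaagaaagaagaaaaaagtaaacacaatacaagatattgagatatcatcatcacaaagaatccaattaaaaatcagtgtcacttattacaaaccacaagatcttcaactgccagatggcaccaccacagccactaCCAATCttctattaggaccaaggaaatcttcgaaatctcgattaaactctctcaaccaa
RBCS1A: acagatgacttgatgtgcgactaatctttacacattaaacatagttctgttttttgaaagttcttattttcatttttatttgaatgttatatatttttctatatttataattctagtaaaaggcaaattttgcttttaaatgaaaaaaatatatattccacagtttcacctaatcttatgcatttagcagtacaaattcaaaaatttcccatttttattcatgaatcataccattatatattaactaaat
RBCS2B: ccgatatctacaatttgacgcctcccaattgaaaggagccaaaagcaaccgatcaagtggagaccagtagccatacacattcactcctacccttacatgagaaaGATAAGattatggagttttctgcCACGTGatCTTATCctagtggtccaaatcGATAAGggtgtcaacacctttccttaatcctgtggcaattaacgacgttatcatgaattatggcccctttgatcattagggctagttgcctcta
The LHCA4 window holds a G-box 88 bases before the gene start, a CCA1-binding site at 182 and CCAATC at 144 and 48. The LHCB2.1 window holds an I-box at 221 and CCAATC at 59. The RBCS2B window holds a G-box at 123 and 3 I-boxes, at 146, 115 and 94, and these letters are not in the RBCS1A window. Only the 250 bases before the annotated gene start were searched. Absence from a window therefore does not show that the promoter of a gene lacks a motif.

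**Figure D1:**
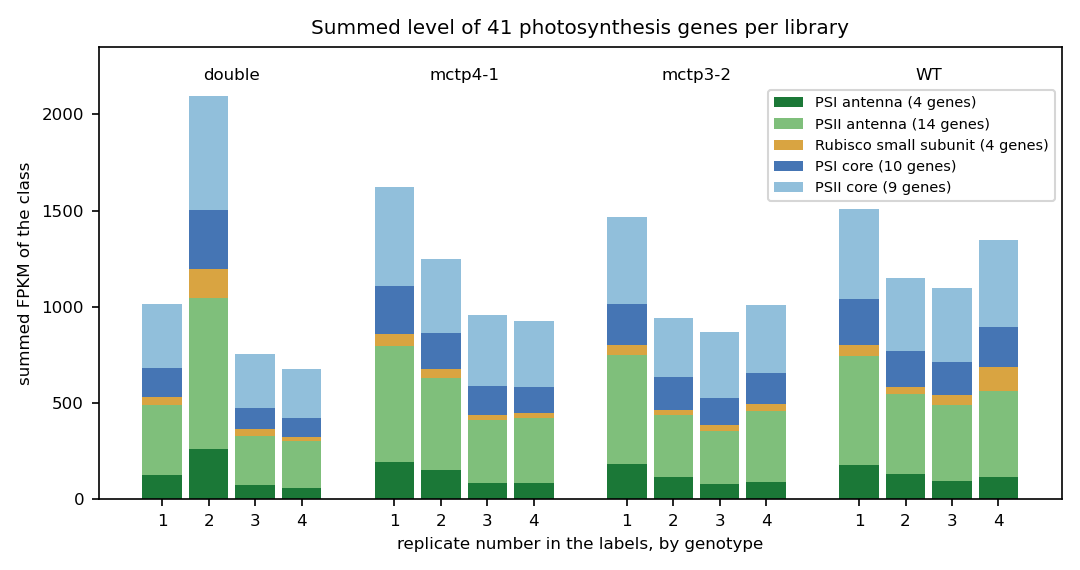
Summed FPKM of the 41 genes in each library, stacked by class, with genotypes from left to right and replicate numbers on the x axis. Double replicate 2 has the tallest bar (2096 FPKM) and double replicate 4 the shortest (677 FPKM).

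Summed over the 41 genes, the libraries labelled double had 1015, 2096, 756 and 677 FPKM in replicates 1 to 4. Those of mctp4-1 had 1623, 1249, 954 and 928 FPKM, those labelled mctp3-2 had 1466, 944, 867 and 1011 FPKM, and those of WT had 1507, 1151, 1096 and 1345 FPKM. Double replicate 2 was the highest and double replicates 3 and 4 were the lowest of all 16, so the spread was widest within 1 genotype. Means were 1136 ± 656 FPKM in double, 1188 ± 324 in mctp4-1, 1072 ± 269 in mctp3-2 and 1275 ± 188 in WT (SD, n = 4 each), and the 4 genotypes overlapped. Double replicate 2 held the highest value of 30 of the 41 genes and WT replicate 4 that of 6. Among the 34 tested, double replicate 2 was highest for 28 (82.4%), against 9.41% of the 19239 genes tested. WT replicate 4 was highest for 8.48% of the 19239. Double replicate 4 was lowest for 22 of the 34, and its share over all genes was not computed. The plot of summed level by library shows that all 5 classes took part in the high bar of double replicate 2.

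The antenna of photosystem I is a belt of LHCA proteins. LHCA4, its most abundant transcript here, was at 81.8, 164, 41.2 and 35.6 FPKM in replicates 1 to 4 labelled double and at 120, 98.0, 48.3 and 52.0 FPKM in mctp4-1. It was at 122, 70.4, 43.5 and 48.9 FPKM in those labelled mctp3-2 and at 105, 85.3, 54.3 and 57.7 FPKM in WT. In each genotype replicates 3 and 4 lay below replicates 1 and 2, and the 4 genotypes overlapped. LHCA2 (AT3G61470), the least abundant, was at 7.23, 18.9, 6.39 and 4.80 FPKM in double and at 10.2, 7.11, 7.19 and 4.82 FPKM in mctp4-1. It was at 7.63, 4.48, 3.96 and 7.24 FPKM in mctp3-2 and at 11.7, 6.21, 7.11 and 12.8 FPKM in WT, with the high values in double replicate 2 and WT replicates 1 and 4. LHCA1 and LHCA3 ranged from 8.29 to 30.2 FPKM and from 10.8 to 49.7 FPKM.

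Photosystem II has a trimeric antenna made of LHCB1, LHCB2 and LHCB3 and the monomeric LHCB4, LHCB5 and LHCB6, which link it to the core. LHCB1.5 was at 225, 419, 122 and 138 FPKM in replicates 1 to 4 labelled double and at 334, 267, 191 and 195 FPKM in mctp4-1. It was at 335, 180, 167 and 202 FPKM in those labelled mctp3-2 and at 340, 251, 229 and 229 FPKM in WT. The 4 genotypes overlapped, and the 2 lowest libraries were double replicates 3 and 4. LHCB2.3 (AT3G27690), the least abundant gene of all 41, was at 0.533, 1.01, 0.0651 and 0.0674 FPKM in double and at 0.428, 0.167, 0.163 and 0.0572 FPKM in mctp4-1. It was at 1.2995, 0.0710, 0.0719 and 0.178 FPKM in mctp3-2 and at 0.565, 0.111, 0.308 and 0.220 FPKM in WT. Of the monomeric antennae, LHCB4.1, LHCB5 and LHCB6 ranged from 11.7 to 54.1 FPKM over all libraries, LHCB4.2 from 6.35 to 19.4 FPKM and LHCB4.3 from 0.773 to 3.99 FPKM.

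Of the 4 genes for the small subunit of Rubisco, RBCS1A (AT1G67090) carried nearly all the level. It was at 37.5, 133, 38.9 and 21.3 FPKM in replicates 1 to 4 labelled double and at 60.01, 45.7, 28.4 and 28.1 FPKM in mctp4-1. It was at 50.2, 28.3, 28.0 and 37.2 FPKM in those labelled mctp3-2 and at 56.4, 35.3, 51.0 and 97.6 FPKM in WT. Double replicate 2 and WT replicate 4 stood above the other 14 libraries, whose highest value was 60.01 FPKM. RBCS1B (AT5G38430), the lowest of the 4 by its mean, was listed at 0 in 13 libraries and at 0.0986 FPKM in mctp4-1 replicate 2, 0.224 FPKM in mctp3-2 replicate 4 and 5.13 FPKM in WT replicate 4.

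In the core of photosystem I, PSAF helps plastocyanin to dock, PSAD and PSAE form the docking site of ferredoxin, PSAG and PSAK contact the antenna, and PSAH, PSAL and PSAO lie where mobile antenna binds. PSAF (AT1G31330), the most abundant, was at 31.9, 53.9, 22.5 and 23.8 FPKM in double replicates 1 to 4 and at 52.0, 43.6, 30.01 and 28.6 FPKM in mctp4-1. It was at 42.8, 37.9, 28.0 and 34.5 FPKM in mctp3-2 and at 55.9, 44.9, 37.5 and 35.0 FPKM in WT. In every genotype both replicates 3 and 4 lay below both replicates 1 and 2, though the pairs overlapped across genotypes. PSAH2 (AT1G52230), the least abundant, was at 1.81, 4.00, 0.464 and 0.645 FPKM in double and at 2.77, 4.85, 1.25 and 0.607 FPKM in mctp4-1. It was at 2.46, 1.11, 1.49 and 1.98 FPKM in mctp3-2 and at 1.45, 1.87, 1.17 and 5.81 FPKM in WT, highest in WT replicate 4.

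In photosystem II, PSBO, PSBP and PSBQ are the extrinsic proteins of the oxygen-evolving complex, and PSBR, PSBW, PSBX and PSBY are small membrane subunits. PSBR, the most abundant, was at 158, 271, 122 and 115 FPKM in double replicates 1 to 4 and at 214, 161, 154 and 150 FPKM in mctp4-1. It was at 187, 130, 147 and 154 FPKM in mctp3-2 and at 206, 166, 177 and 187 FPKM in WT, and outside double it stayed between 130 and 214 FPKM. PSBY (AT1G67740), the least abundant, was at 5.81, 11.4, 4.40 and 4.44 FPKM in double and at 10.4, 7.80, 5.93 and 5.71 FPKM in mctp4-1. It was at 8.28, 5.26, 5.49 and 6.86 FPKM in mctp3-2 and at 10.2, 6.34, 5.41 and 10.3 FPKM in WT. Of the genes that encode the same protein, PSBO1 ranged from 25.0 to 74.4 FPKM and PSBO2 from 8.08 to 18.3 FPKM, and PSBQ-2 from 6.22 to 20.3 FPKM and PSBQA from 7.42 to 18.9 FPKM.

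**Figure D2:**
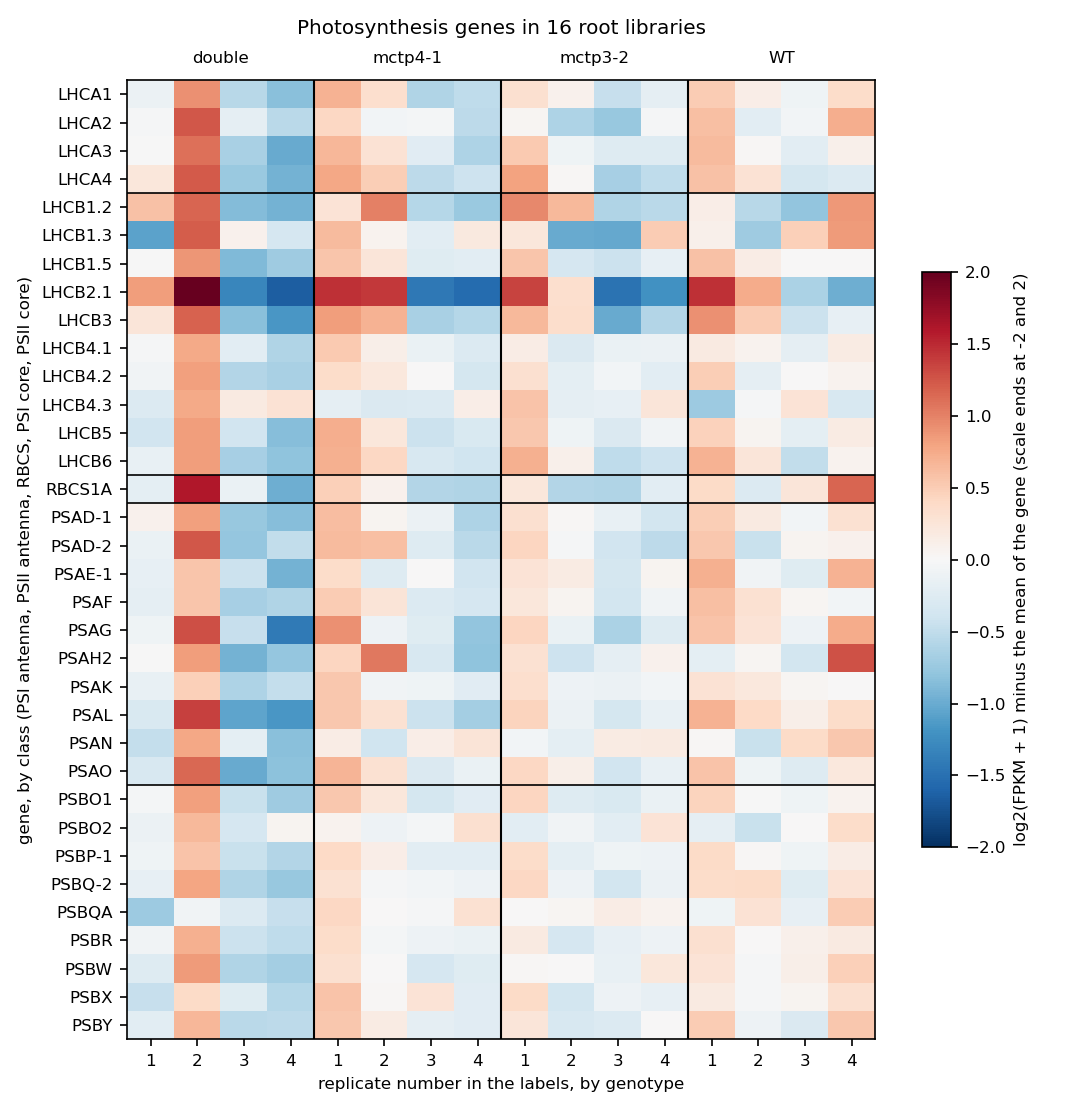
Log2(FPKM + 1) of the 34 tested genes in 16 libraries, each gene centred on its own mean, with genes in rows by class and libraries in columns by genotype and replicate number. The column of double replicate 2 is red for 33 of the 34 genes, and that of double replicate 4 is blue for most.

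The first question of the design is whether the mutant alleles change these genes against WT. No gene of the 34 passed the test in any mutant. The median log2 difference of FPKM + 1 was -0.32 in double (3 genes above 0 and 31 below), -0.09 in mctp4-1 (9 above and 25 below) and -0.19 in mctp3-2 (3 above and 31 below). The medians over all 19239 genes tested were 0.03 for double, 0.03 for mctp4-1 and 0.05 for mctp3-2. The 3 comparisons share their WT libraries, so their common sign is not independent. With limma and Benjamini-Hochberg adjustment over all genes tested, 0 members were called in each, where the background was 0.156% of genes called in double, 0.026% in mctp4-1 and 0.0312% in mctp3-2. At an unadjusted p under 0.05 there was 1 member in double, where 3.82% of all genes were under it, and 0 in mctp4-1 and mctp3-2, where 1.26% and 1.85% were. One gene of 34 is no more than that background. It was PSBQA (AT4G21280) in double, one of 2 genes for an extrinsic protein of the oxygen-evolving complex. PSBQA was at 7.42, 12.2, 10.6 and 9.16 FPKM in the libraries labelled double, against 12.2, 16.0, 11.4 and 18.9 FPKM in WT, and the groups overlapped. Its log2 difference was -0.52 ± 0.16 (SE, n = 4 libraries each), with an adjusted p of 0.617. With the replicate number as a block, 0.541% of all genes were called in double and 0.0572% in mctp3-2, and still 0 members.

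The direction differed between the replicates. For double minus WT by replicate number, 30 of the 34 genes lay below 0 in replicate 1 with a median log2 difference of -0.60, and 33 lay above 0 in replicate 2 with a median of 0.80. In replicate 3 all 34 lay below 0 with a median of -0.39, and in replicate 4 it was 33 with a median of -1.01. For mctp4-1 minus WT the medians were 0.09, 0.17, -0.13 and -0.46 in replicates 1 to 4, with 25, 24, 11 and 1 genes above 0. For mctp3-2 minus WT they were -0.09, -0.23, -0.22 and -0.37, with 11, 7, 5 and 1 genes above 0. The plot of mutant minus WT by replicate number shows that replicate 2 of double was the one exception to lower values in double. Libraries were not shown to match by single number beyond the replicate pair, so these differences are a description.

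**Figure D3:**
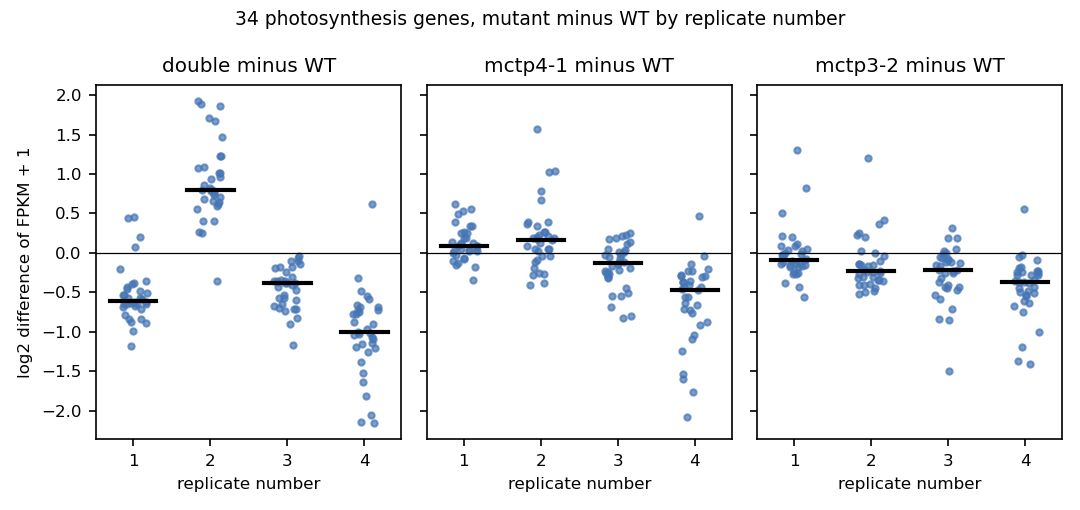
Log2 difference of FPKM + 1 between each mutant and WT library of the same replicate number, 1 point per gene for 34 genes, with the median as a black line. Double stands above WT in replicate 2 (median 0.80) and below it in replicates 1, 3 and 4 (medians -0.60, -0.39 and -1.01).

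Differences within each replicate pair came from 1 fit to all 16 libraries, with 1 mean per genotype and replicate pair. Both pairs therefore share 1 estimate of the spread for each gene. Within replicates 3 and 4, double minus WT had a median of -0.69 with 33 of 34 genes below 0. Within replicates 1 and 2 it had a median of 0.17 with 10 below 0. For mctp4-1 the medians were -0.30 in replicates 3 and 4 (34 below 0) and 0.14 in replicates 1 and 2 (7 below 0). For mctp3-2 they were -0.27 (33 below 0) and -0.11 (27 below 0), so the sign turned in double and mctp4-1 and did not in mctp3-2. No member was called in these 6 comparisons by limma, and few genes were called at all. Within replicates 3 and 4 the background was 0.0936% for double, 0.0156% for mctp4-1 and 0.0364% for mctp3-2, and within replicates 1 and 2 it was 0.26%, 0.0208% and 0.0364% for the same mutants. At an unadjusted p under 0.05 there were 17 members for double, 1 for mctp4-1 and 0 for mctp3-2 within replicates 3 and 4, where 938 (4.88%), 334 (1.74%) and 265 (1.38%) of all genes were. Within replicates 1 and 2 there were 2 for double, 0 for mctp4-1 and 1 for mctp3-2, where 1938, 772 and 2009 of the 19239 genes tested were, so these members were no more frequent than the background. The 17 included 9 of the 10 core genes of photosystem I.

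The change of the mutant difference between the pairs was tested as an interaction, the difference in replicates 3 and 4 minus that in replicates 1 and 2. Its median was -0.88 for double, with all 34 genes below 0, -0.42 for mctp4-1 with 33 below 0, and -0.23 for mctp3-2 with 30 below 0. None of the 34 was called in any of the 3 by limma, where 0% of all genes were called for double, 0.0052% for mctp4-1 and 0% for mctp3-2. At an unadjusted p under 0.05 there were 10 members and 1158 of all genes for double, 2 members and 548 genes for mctp4-1, and 1 member and 750 genes for mctp3-2. The smallest adjusted p in double was 0.628, for LHCB1.2, with a log2 value of -2.02 ± 0.63 (SE, 16 libraries). With all 16 libraries the turn of direction thus did not pass the test for any gene. In replicates 3 and 4 LHCB1.2 reached 1 FPKM only in WT replicate 4, so it entered the tests through replicates 1 and 2. Its value is therefore not independent of the filter, and it is an LHCB1 gene with near copies. Without double replicate 2 the interaction median for double was -0.39, with 29 of 34 below 0, and without both double replicate 2 and WT replicate 4 it was -0.21, with 26 below 0. Without double replicate 1, double replicate 2 alone stood for double in replicates 1 and 2. The interaction median was then -1.32, with all 34 below 0, and the PSAL value was -2.16. Calls are not given for that setting, since 1 library shows no spread of its own. The positive values of double in replicates 1 and 2 thus came from 1 library.

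Without double replicate 2, double minus WT had a median of -0.64 over all replicates, with 33 of 34 genes below 0, 22 at an unadjusted p under 0.05 and still 0 called. Of all genes tested in that setting, 1010 (5.26%) had an unadjusted p under 0.05. This setting was planned as one of 16 in which 1 library is left out. PSAL, a core subunit of photosystem I, then had a log2 difference of -1.23 ± 0.29 (SE, 3 double and 4 WT libraries) and PSBW, a small subunit of photosystem II, -0.72 ± 0.16. With all libraries the same differences were -0.68 ± 0.44 for PSAL and -0.38 ± 0.26 for PSBW, and neither was called in either setting.

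The second comparison is between the replicate pairs, in all genotypes together. Replicates 3 and 4 had lower levels of 21 of the 34 genes than replicates 1 and 2, and 0 of the 34 were higher. The background was 16.6% of all genes tested called lower and 27.9% called higher, 44.4% in all, and the median over all genes was 0.05. The median log2 difference of the 34 was -0.50, and summed over the 41 genes the level was 954 ± 207 FPKM in replicates 3 and 4 and 1381 ± 376 FPKM in replicates 1 and 2 (SD, n = 8 each). The plot of pair differences by gene shows that the antenna genes spread most.

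**Figure D4:**
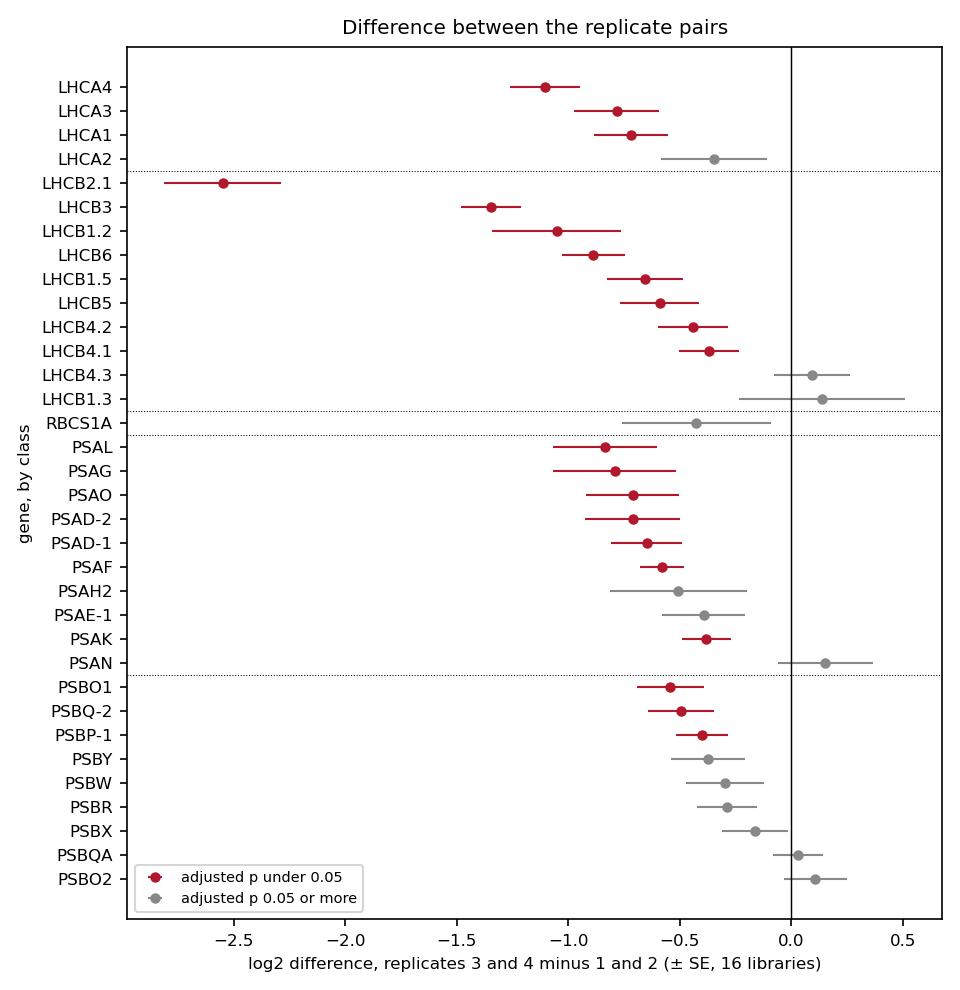
Log2 difference of FPKM + 1, replicates 3 and 4 minus replicates 1 and 2, with its SE for 34 genes grouped by class from top to bottom (PSI antenna, PSII antenna, RBCS1A, PSI core, PSII core). LHCB2.1 is the farthest from 0 at -2.55 and the 21 red points all lie below 0.

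In the photosystem II antenna 8 of 10 tested genes fell. LHCB2.1 (AT2G05100) had 0.226, 0.488 and 1.48 FPKM as lowest, median and highest in replicates 3 and 4, against 3.83, 8.97 and 22.3 FPKM in replicates 1 and 2. The pairs did not overlap, and the log2 difference was -2.55 ± 0.26 (SE, n = 8 libraries each, limma adjusted p = 5.8e-06). LHCB2.1 entered the tests only through replicates 1 and 2, since in replicates 3 and 4 it reached 1 FPKM only in WT replicate 3. Its fall is therefore not independent of the filter. LHCB3 (AT5G54270), the third protein of the trimer, had 9.48, 14.3 and 19.9 FPKM in replicates 3 and 4, against 26.8, 36.4 and 52.0 FPKM in replicates 1 and 2, again with no overlap and a log2 difference of -1.35 ± 0.14 (limma adjusted p = 3.5e-06). LHCB1.2, LHCB6, LHCB1.5, LHCB5, LHCB4.2 and LHCB4.1 fell by 1.05, 0.89, 0.66, 0.59, 0.44 and 0.37 on the log2 scale. LHCB1.2 also entered the tests only through replicates 1 and 2, since in replicates 3 and 4 it reached 1 FPKM only in WT replicate 4. LHCB1.3 and LHCB4.3, at 0.14 ± 0.37 and 0.09 ± 0.17, did not pass the test. Within the tandem group on chromosome 1, then, LHCB1.2 passed the test and its near copy LHCB1.3 did not, and their difference from each other was not tested.

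In the photosystem I antenna LHCA4, LHCA3 and LHCA1 fell by 1.104, 0.78 and 0.72, and LHCA2 at -0.35 ± 0.24 did not pass. LHCA4 had 35.6, 48.6 and 57.7 FPKM as lowest, median and highest in replicates 3 and 4, against 70.4, 102 and 164 FPKM in replicates 1 and 2, with no overlap (limma adjusted p = 0.00011). LHCA4, LHCB2.1 and LHCB3 were the 3 of the 34 genes whose pairs did not overlap, all lower in replicates 3 and 4, where 4.27% of all genes tested were separated in that direction and 7.42% in the other.

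Of the 10 core genes of photosystem I, 7 fell, namely PSAL by 0.84, PSAG by 0.79, PSAO by 0.71, PSAD-2 by 0.71, PSAD-1 by 0.65, PSAF by 0.58 and PSAK by 0.38. PSAE-1 at -0.39 ± 0.18, PSAH2 at -0.51 ± 0.31 and PSAN at 0.15 ± 0.21 did not pass. Of the 9 genes of photosystem II, 3 of the extrinsic proteins fell, PSBO1 by 0.54, PSBQ-2 by 0.50 and PSBP-1 by 0.40. The other copies of the same proteins, PSBO2 at 0.11 ± 0.14 and PSBQA at 0.03 ± 0.11, did not pass, nor did PSBR, PSBW, PSBX and PSBY, at -0.16 to -0.37. RBCS1A, at -0.43 ± 0.33, did not pass either. The medians by class were -0.75 for the photosystem I antenna, -0.62 for the photosystem II antenna, -0.61 for the photosystem I core and -0.30 for photosystem II.

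Taken genotype by genotype, with 2 libraries against 2, the median difference between the pairs was -0.98 in double, -0.65 in mctp4-1, -0.34 in mctp3-2 and -0.12 in WT. In double 11 of the 34 were called lower, where 3.98% of all genes were. In mctp4-1, mctp3-2 and WT 2 were called lower in each, where the background was 2.35%, 2.82% and 5.88%. The 2 genes were LHCB2.1 and LHCB3 in each of these 3 genotypes, and both were also among the 11 in double. In WT a count of 2 of 34 is about the background share. LHCB2.1 had entered the tests only through replicates 1 and 2. LHCB2.1 changed by -3.19 in double, -2.92 in mctp4-1, -2.19 in mctp3-2 and -1.91 in WT, with an SE of 0.49 in each. LHCB3 changed by -1.71 in double, -1.37 in mctp4-1, -1.298 in mctp3-2 and -1.01 in WT, with an SE of 0.27 in each. The differences between genotypes were part of the interaction tests, where neither gene passed. The count in double was 2 without double replicate 2, 3 or 4 in turn, 25 without double replicate 1, and 6 without replicate 3 or 4 of mctp4-1 or of mctp3-2. The share of all genes called lower moved too, being 2.13%, 1.41% and 2.06% without double replicates 2, 3 and 4, 4.53% without double replicate 1, and 3.55 to 3.84% without the 4 libraries of mctp4-1 and mctp3-2.

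Other groups of genes were compared between the pairs, from lists that were also drawn up with earlier results of these libraries known. Their counts stand beside 16.6% of all genes tested called lower and 27.9% called higher. All 9 clock genes passed, 4 lower and 5 higher in replicates 3 and 4. CCA1, a morning-phased transcription factor that binds antenna gene promoters, was at 1.14 to 2.01 FPKM in replicates 3 and 4 against 15.2 to 18.4 FPKM in replicates 1 and 2. Its log2 difference was -2.86 ± 0.07, that of its partner LHY -2.89 ± 0.09 and that of the evening-phased LUX 1.61 ± 0.05. Clock genes thus moved with the replicate pair alongside the photosynthesis genes, and their part in the difference was not tested.

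Of 22 tested genes of chlorophyll and tetrapyrrole synthesis 3 were lower and 7 higher, shares near those of all genes. CH1, the enzyme that makes chlorophyll b, fell by 1.03, while GSA2 and CHLD, enzymes of earlier steps, rose by 0.43 and 0.42. Of 13 genes of the Calvin cycle, 2 fell and 2 rose, with FBA2 at -0.90, PGK1 at 0.17 and CP12-1 at 0.57 having the smallest adjusted p. Of 10 genes of photosynthetic electron transport and the ATP synthase, 4 fell and 2 rose, among them FNR2 at 1.01, FED A, the main leaf ferredoxin, at -0.58 and FD1 at -0.41. Of 9 further antenna and photosystem genes, PSAH-1 fell by 0.85, PSI-P by 0.28 and NPQ4, the sensor of thermal dissipation, by 0.35. RFNR2 and FD3, of the electron chain of non-green plastids, fell by 0.64 and 0.32, and RFNR1 at -0.07 ± 0.06 did not pass.

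Among 15 tested light-signalling and greening regulators, 7 rose and 2 fell, with HY5, PHYA and PHYB rising by 0.72, 0.39 and 0.38. Of 7 light-induced genes outside photosynthesis, FLS1 and MYB12, both of flavonol synthesis, rose by 0.91 and 1.08, and TT4 fell by 0.21, with 3 higher and 1 lower in all. Of 8 photorespiratory genes, CAT2 and GOX2 rose by 0.43 and 0.35 and SHM1 fell by 0.16, with 3 higher and 1 lower. No gene of these lists passed the test against WT in any mutant.

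None of the 10 root markers passed between the pairs, among them SCR at 0.13, WOX5 at -0.19 and COBL9 at 0.19. Of the 4 shoot markers with enough signal, PDF1, an epidermal gene, fell by 1.44, with 10.7 to 21.3 FPKM in replicates 3 and 4 and 26.9 to 49.2 FPKM in replicates 1 and 2. CUT1 and CER3, of wax synthesis, were at -0.56 ± 0.23 and -0.12 ± 0.08 and did not pass. The 14 shoot markers summed to 20.9 to 39.2 FPKM in replicates 3 and 4 and to 41.9 to 63.7 FPKM in replicates 1 and 2, mostly PDF1. The leaf-defining TGG2, FAMA, FIL and YAB5 were at 0 in both.

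**Figure D5:**
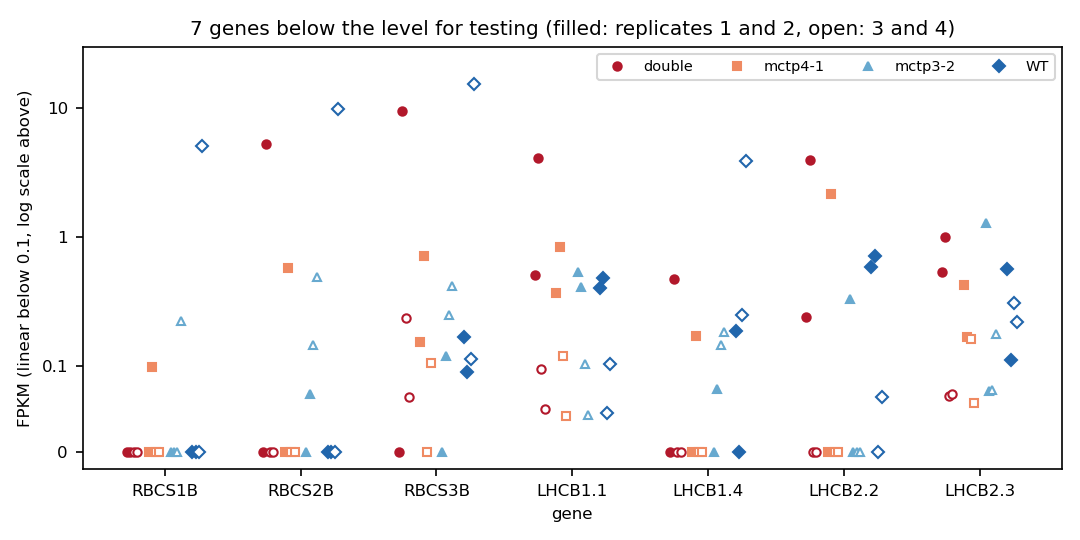
FPKM of the 7 genes below the level for testing in each library, with genotypes from left to right within each gene and filled symbols for replicates 1 and 2, on an axis that is linear below 0.1 and logarithmic above. For RBCS2B and RBCS3B, double replicate 2 (5.32 and 9.61 FPKM) and WT replicate 4 (9.97 and 15.5 FPKM) lie above all other libraries.

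The 7 genes below the level for testing were near 0 in most libraries and clearly present in a few. These values were singled out after they were seen and have no test. RBCS3B was at 9.61 FPKM in double replicate 2 and 15.5 FPKM in WT replicate 4, and its highest value in the other 14 libraries was 0.719 FPKM. RBCS2B was at 5.32 and 9.97 FPKM in the same libraries, with 0.575 FPKM as the highest elsewhere. RBCS1B was listed at 0 in double replicate 2 and at 5.13 FPKM in WT replicate 4. All 3 chromosome 5 RBCS genes were thus highest in WT replicate 4, and RBCS2B and RBCS3B were also high in double replicate 2, a library of another genotype and replicate pair.

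LHCB1.4 was at 3.88 FPKM in WT replicate 4, 0.473 FPKM in double replicate 2 and at most 0.250 FPKM elsewhere. LHCB2.2 was at 3.96 FPKM in double replicate 2 and 2.15 FPKM in mctp4-1 replicate 2, but at 0.0643 FPKM in WT replicate 4. LHCB1.1 was at 4.14 FPKM in double replicate 2 and at 0.104 FPKM in WT replicate 4. High values of RBCS1A, RBCS2B and RBCS3B were therefore shared by the 2 libraries, and those of RBCS1B, LHCB2.2 and LHCB1.1 were not. LHCB1.1 was at 0.0413 to 0.119 FPKM in replicates 3 and 4 and 0.368 to 4.14 FPKM in replicates 1 and 2, with no overlap.

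These 2 libraries were singled out from the same genes. They were the highest 2 for 6 of the 34 tested genes, against 1.26% of all genes tested, and for 3 of the 7 untested genes. Besides RBCS1A, RBCS2B, RBCS3B and LHCB1.4 these genes were LHCA2, LHCB1.3, PSAN, PSBO2 and PSBW. Outside the 41, they were the highest 2 for 5 of 15 Calvin cycle genes, 3 of 11 other antenna and photosystem genes, 2 of 10 photorespiratory genes, 2 of 23 tetrapyrrole genes and 1 of 20 greening regulators. None of the 10 genes of electron transport and the ATP synthase, 9 plastid-encoded loci, 9 clock genes, 8 light-induced genes or 3 root-type ferredoxin genes did so. FBA1, a plastid aldolase, was at 1.27 FPKM in double replicate 2 and 0.909 FPKM in WT replicate 4, against at most 0.261 FPKM elsewhere. PRK, a Calvin cycle kinase, was at 1.26 and 2.76 FPKM in these libraries and at most 0.641 FPKM elsewhere, and GOX1, of photorespiration, at 2.23 and 3.37 FPKM and at most 1.02 FPKM elsewhere. Of the 14 shoot markers 1 did so, CUT1, at 2.73 and 4.52 FPKM against at most 2.36 FPKM, while 0 of the 10 root markers did. The leaf myrosinase TGG1 was at 0 in double replicate 2, at 0.436 FPKM in WT replicate 4 and at most 0.0424 FPKM elsewhere. Other shoot markers did not stand out there. PDF1 was at 26.9 and 19.9 FPKM, against at most 49.2 FPKM elsewhere. CER1 was at 1.67 and 2.48 FPKM, against at most 3.20 FPKM. The summed shoot markers of double replicate 2, at 41.9 FPKM, were the lowest of replicates 1 and 2. Those of WT replicate 4, at 39.2 FPKM, were the highest of replicates 3 and 4. The part of green tissue in these libraries was not tested.

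The 34 tested genes varied together across libraries to different degrees. Pearson's r of log2(FPKM + 1) with the mean of the other members, as a description over 16 libraries that share genotype and replicate pair, was highest for PSBO1 at 0.98, LHCA3 at 0.97 and PSBP-1 at 0.97. It was lowest for LHCB4.3 at 0.04, PSBQA at 0.32, PSBO2 at 0.34, PSAN at 0.50 and LHCB1.3 at 0.54. These 5 genes are also the 5 of the 34 with a pair difference above 0. Within the pairs the order changed, since PSAN correlated at 0.86 over the 8 libraries of replicates 3 and 4 and 0.90 over the 8 of replicates 1 and 2, and LHCB1.3 at 0.63 and 0.98. LHCB4.3 was at -0.53 over replicates 3 and 4 and 0.49 over replicates 1 and 2.

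Outside the 41, the 10 genes whose profile was most like the mean of the members over 16 libraries were PDE334, RCA, PRA7, PSAH-1, AT1G65720, GGPS1, TROL, AT1G74470, PDS1 and PHOS34, at r of 0.89 to 0.93. PDE334, a subunit of the plastid ATP synthase, was at 43.7 to 70.5 FPKM. RCA, Rubisco activase, was at 12.3 to 39.6 FPKM, and PSAH-1, the second gene for the H subunit of photosystem I, at 2.56 to 17.8 FPKM. PRA7, AT1G65720, GGPS1, TROL, AT1G74470, PDS1 and PHOS34 belonged to none of the gene lists compared above. All 10 were highest in double replicate 2. The mean of the members was highest there too, so this peak follows largely from how the 10 were chosen and is not a separate observation. For comparison, the median r over 19205 genes outside the 41 was -0.10, that of 10 root markers 0.14 and that of 4 shoot markers 0.57. It was 0.68 for 9 other antenna and photosystem genes, 0.68 for 10 genes of electron transport and 0.50 for 13 of the Calvin cycle. The 9 clock genes had a median of -0.53 and ran from -0.64 to 0.67. The 9 plastid-encoded photosynthesis loci listed by code, in libraries made from polyadenylated RNA, were at 0 to 5.09 FPKM and are given without comparison.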

How the data were processed

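Roots of Arabidopsis were profiled by RNA sequencing with a stranded kit for messenger RNA, per the labels' protocols. Alignment and quantification tools are HISAT2 and Cufflinks and the build is TAIR10, per the submitters' processing notes; versions, and whether counting used the strand, were not stated there. The authors deposited 1 table of FPKM for 33560 genes in 16 libraries, so length and library size were already divided out. All columns could be tied to a library through their names (0 unmapped). FPKM below 1e-06 were taken as 0. Whole reads were not recovered. In each other library no more than 13.5% of weakly expressed genes lay at the most common ratio to WT replicate 1. Absolute depth is therefore unknown and no counting interval is given. Depth relative to WT replicate 1 was estimated at 0.889 to 1.61.

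The 41 genes, the other lists and the tests were chosen with earlier results of these data known. Genes at 1 FPKM or more in at least 4 libraries entered the tests (19239). The model, from limma 3.58.1 (R 4.3.3), was fitted to log2(FPKM + 1) with its trend and robust options, as 1 mean per genotype, as genotype means plus a term for the replicate pair, or as 8 means. Fold changes on this scale understate those of low genes. Tests were 2-sided, and a Benjamini-Hochberg adjusted p under 0.05 over all genes tested was a call. The fits were tested on simulated data. Alternatives changed the pseudocount, the filter and the scaling, left out single libraries, added a replicate block or took differences within 1 replicate pair.

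Named genes followed a rule. All 41 are named, with every library's value for the most and the least abundant of each class. Of each other list the 3 genes with the smallest adjusted p between the pairs are named, and the 10 genes most like the members' mean. Others were chosen after their values were seen. Of 145 genes in 12 other lists, 133 were used by name, 9 plastid loci have no name in the annotation, and 3 carried another name there and were dropped. Positions and sequences are from TAIR10.1, with coding sequences taken from the longest annotated one of each gene and aligned with Biopython; no coordinates were converted.

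Libraries of different genotypes with the same replicate number deviated together from their genotype means, at correlations of 0.203 to 0.556 over 24 pairs, and the numbers were taken as pairs because every correlation was above 0.1. The tests as reported have no term for the number, and fits with it as a block are given beside them where calls moved. Different numbers of the same replicate pair gave 0.185 to 0.524, and numbers of different pairs -0.518 to -0.186. The range for the same number was thus close to that for the other number of the pair. The correlations set the replicate pairs apart and do not show a match by single number.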

Additional observations from a re-analysis of the deposited data

Results flagged for a closer look

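Dixon's test at its 95% critical value was applied to 167 groups of 4 libraries, 1 for each gene and genotype with values and for the sums. In 22 groups a library lay far from the other 3. Where the other 3 libraries were at 0, any value above 0 was flagged. This was so for LHCB1.4, LHCB2.2, RBCS1B and RBCS2B in mctp4-1 replicate 2, among others. The share of about 5% by chance does not hold for such groups, so the 22 cannot be read against it. None of the 22 was weighed for a cause.

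Most concerned genes near 0. In double replicate 2 they were LHCB1.1 at 4.14 FPKM, LHCB1.4 at 0.473, LHCB2.2 at 3.96, RBCS2B at 5.32 and RBCS3B at 9.61 FPKM. The well-expressed RBCS1A stood apart there too, at 133 FPKM. In WT replicate 4 they were LHCB1.4 at 3.88 FPKM, RBCS1B at 5.13, RBCS2B at 9.97, RBCS3B at 15.5 and PSAH2 at 5.81 FPKM. In mctp4-1 replicate 2 they were LHCB1.4 at 0.1699 FPKM, LHCB2.2 at 2.15, RBCS1B at 0.0986 and RBCS2B at 0.575 FPKM. In mctp3-2 they were LHCB2.2 at 0.331 and LHCB2.3 at 1.2995 FPKM in replicate 1 and RBCS1B at 0.224 FPKM in replicate 4.

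Replicate 1 stood above the other 3 libraries for PSAK in mctp4-1 at 52.4 FPKM and in mctp3-2 at 45.4 FPKM, for PSBP-1 in mctp3-2 at 47.0 FPKM and for PSBR in mctp4-1 at 214 FPKM.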

How the results depend on the processing

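Of 486 values recomputed under alternatives, 440 were equal or close to those reported. Counts were taken as close if of similar size, and many were 0 in both settings. Medians were taken as close if they kept their sign and moved by less than the spread between libraries, 0.32 on the log2 scale. No alternative gave a call in the comparison of any mutant with WT: 0 members in each. This does not cover the interactions. The cause of the changes below was not tested.

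The median of double against WT was 0.17 within replicates 1 and 2, -0.69 within replicates 3 and 4, and -0.64 to -0.10 when single libraries were left out. That of mctp4-1 was 0.14 within replicates 1 and 2. Between the pairs in all genotypes, 18 to 24 members were called when single libraries were left out. Within genotypes these counts were 2 to 25 in double (medians -1.48 to -0.51), 0 to 8 in mctp4-1, 0 to 3 in mctp3-2 and 0 to 4 in WT. Calls over all genes moved in the same settings, from 355 to 2115 in double, 268 to 1113 in mctp4-1, 328 to 974 in mctp3-2 and 778 to 3860 in WT. The 0 in WT came without any 1 of its 4 libraries, in mctp4-1 without replicate 1 or 4, and in mctp3-2 without replicate 1 or 3. The median in WT was 0.013 without WT replicate 1 and 0.025 without WT replicate 3, the lowest being -0.36, and in mctp3-2 -0.56 to 0.028, highest without mctp3-2 replicate 1. Scaling by the median of ratios gave 4 calls in mctp4-1. Leaving out both double replicate 2 and WT replicate 4, chosen after seeing the data, gave 2 calls in double (median -0.51), 9 in mctp4-1, 5 in mctp3-2 and an interaction median of -0.21 for double. The interaction of double had medians of -1.32 to -0.39 with single libraries left out, the lowest without double replicate 1. That of mctp3-2 had medians from -0.43 to 0.093, with 0.093 without mctp3-2 replicate 1 and 0.017 without WT replicate 2. Where 1 library was left in an arm, it was assumed to vary like the others.

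With the replicate block, 0 members were called in any comparison with WT or interaction, while calls over all genes in double went to 104 with the block, against 30 without it, and to 11 against 6 in mctp3-2. PSBQA in double then had a limma adjusted p of 0.222. Without read counts, depth sets no limit that can be stated for the 7 untested genes.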
